A study of Mus musculus with 45 samples.

Results

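Gmpr encodes guanosine monophosphate reductase, and its accessibility score was compared between Stag2 WT and KO erythroblasts of mice beside 9 other genes of purine nucleotide metabolism. The relatives were Gmpr2, Impdh1, Impdh2, Gmps, Guk1, Hprt, Ada, Ampd3 and Pnp, and all 10 were listed by symbol and found among the 24333 genes of the deposited table. Gmpr was chosen by its gene score in KO against WT nuclei, and the relatives by their place in the pathway with those results known, so the KO and WT values of Gmpr are a description with no test.

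The series held 45 samples, of which 6 were used: single-nucleus chromatin accessibility (ATAC) libraries, made by the 10x multiome protocol from nuclei of sorted Ter119+ erythroblasts, 3 WT and 3 KO. Ter119 is a surface marker of red cell precursors, and Stag2 is a cohesin gene; cohesin rings shape chromatin loops. Both groups had received pIpC, a double-stranded RNA analogue commonly given to switch on an inducible Cre, and were taken 6 to 8 weeks after its last dose. The driver of the deletion, the allele, the age of the mice and whether each library came from its own mouse are not given in the sources used here, so p-values measure the spread between these libraries, which may be technical.

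Purine nucleotides are made either from small precursors, a route that ends in inosine monophosphate (IMP), or by salvage of bases and nucleosides. IMP dehydrogenase and GMP synthetase turn IMP into the guanine nucleotide GMP, and GMP reductase is the step that turns GMP back into IMP, from which adenine nucleotides can be made. Red cells lose the first route as they mature and rely on salvage, and Ampd3 is known as the AMP deaminase of the erythrocyte.

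The gene score is a signal that sums ATAC fragments around a gene. It measures how open the chromatin is and not expression. Each library's score is the mean of its nuclei, given per 1000000 of the library's total. How the authors weighted fragments is not given in the sources used here, so levels are compared between libraries for 1 gene and not between genes. The libraries held 4617 to 6990 nuclei and 46782673 to 66286151 fragments. The share of fragment ends in peaks, as a median over nuclei, was 62.2% to 64.7% in WT and 57.4% to 59.9% in KO. Of 33320 distinct barcodes, 725 occurred in more than 1 library. The Stag2 score differed little (log2 difference KO less WT -0.054, limma adjusted p = 0.348), and a score summed over a whole gene does not check a deleted exon. Summed over 11 erythroid markers the score was 2175 to 2356 in WT and 1865 to 2037 in KO. Of the 11, 10 were lower in KO past the threshold, beside 14.2% of all genes. Over 5 stem and progenitor markers the sum was 59.6 to 73.5 in WT and 94.0 to 112 in KO, with Gata2 alone at 15.7 to 21.5 and 38.7 to 48.3, and over 8 myeloid markers 68.0 to 77.5 and 92.2 to 95.2, with no marker at 0 in any library. The sums over lymphoid, megakaryocyte and mast or basophil markers, given below, were higher in KO as well. Over all genes the difference went with the level of the score. The median log2 difference was 0.26 at mean scores of 5.00 to 10.6 and -0.071 at 76.1 or more. The part of the level in the marker sums, and of these shifts in the results on the purine genes, was not tested.

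In the mm10 coordinates of the deposited table Gmpr lies on the plus strand of chromosome 13, at 45507444 to 45546386. The 250 bases before the start given by the deposited table, which RefSeq's promoter list (GRCm38.p6) also holds, are shown for the GMP reductase pair Gmpr and Gmpr2 and for Impdh1, the relative whose score rose, since these windows adjoin the genes scored. Capitals mark CACCC, the core of sites for Klf1-type factors, GATAA, the core of sites for GATA factors, and GGGCGG, the GC box, each on either strand.
Gmpr: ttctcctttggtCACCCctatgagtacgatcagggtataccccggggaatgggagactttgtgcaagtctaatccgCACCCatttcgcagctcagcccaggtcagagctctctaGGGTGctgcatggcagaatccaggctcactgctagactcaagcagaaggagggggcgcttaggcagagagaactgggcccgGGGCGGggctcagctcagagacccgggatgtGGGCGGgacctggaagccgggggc
Gmpr2: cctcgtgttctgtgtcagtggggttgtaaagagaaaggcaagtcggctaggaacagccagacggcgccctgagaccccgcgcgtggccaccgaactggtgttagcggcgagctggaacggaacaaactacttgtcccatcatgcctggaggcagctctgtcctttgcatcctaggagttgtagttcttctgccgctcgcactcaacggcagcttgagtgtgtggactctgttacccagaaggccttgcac
Impdh1: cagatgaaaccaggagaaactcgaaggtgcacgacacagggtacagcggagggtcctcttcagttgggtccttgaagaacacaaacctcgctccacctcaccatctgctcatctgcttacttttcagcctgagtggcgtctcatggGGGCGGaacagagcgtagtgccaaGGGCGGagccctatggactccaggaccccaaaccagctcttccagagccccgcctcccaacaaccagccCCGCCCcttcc

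These windows lie at chr13:45507194-45507443 (plus strand), chr14:55671985-55672234 (plus) and chr6:29216365-29216614 (minus), in that order. RefSeq lists a second start for Impdh1, and its gene record for Gmpr begins at 45507428, just inside the end of the Gmpr window. The Gmpr window held 3 CACCC and 2 GGGCGG matches, which did not overlap, and no GATAA. The Gmpr2 window held none of the 3 motifs, and the Impdh1 window held 3 GGGCGG. Among 32851 windows of the same length, 52.0% held CACCC, 32.7% GGGCGG and 22.6% GATAA. The E-box form CAGNTG, held by 44.8% of windows, matched 4 times before Impdh1 and at no place before the other 2 genes. Neither TTCNNNGAA, the form bound by STAT factors, in 7.02% of windows, nor an IRF motif, in 2.98%, matched in any of the 3 windows.

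Over all nuclei the Gmpr score was 8.48, 10.96 and 8.23 in the WT libraries, in the order of their replicate numbers as everywhere here, and 55.1, 54.1 and 53.0 in the KO libraries. The groups lay far apart, with means of 9.22 ± 1.51 and 54.1 ± 1.10 (SD, n = 3 each), a ratio of 5.86. The log2 difference, on the log2(score + 1) scale used for every difference here, was 2.44. With each library left out in turn it was 2.37 to 2.56.

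The authors sorted nuclei into 3 classes, Early, Int and Late, and the difference stood at a similar size in both large ones. In Int nuclei, read here as intermediate, the Gmpr score was 11.5, 13.3 and 9.37 in WT and 63.5, 67.6 and 65.9 in KO, a ratio of 5.77. In Late nuclei it was 6.64, 7.61 and 6.58 in WT and 44.0, 43.1 and 40.4 in KO, a ratio of 6.12. Early nuclei numbered at least 50 in 3 libraries, where the Gmpr score was 23.8 and 28.7 in WT replicates 1 and 2 and 69.6 in KO replicate 1. In every class with values, each KO library was above each WT library, and within each library with all 3 classes the order was Early, Int, Late from high to low.

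**Figure D1:**
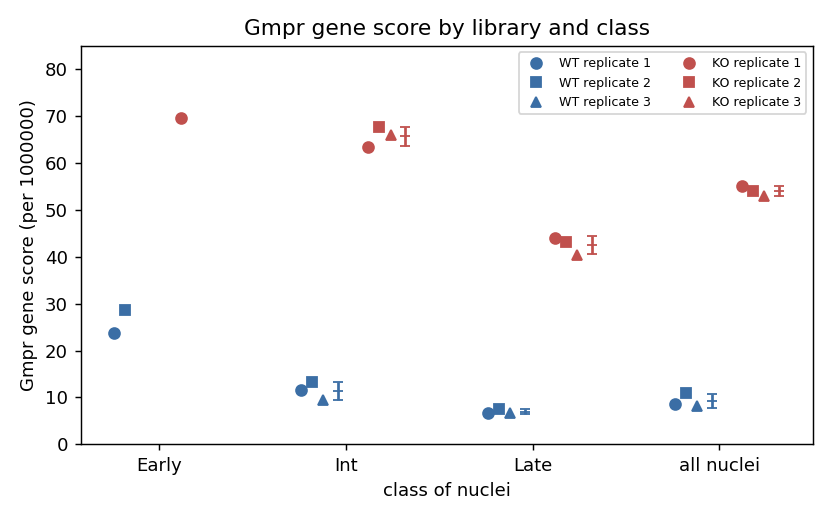
Gmpr gene score per 1000000 (vertical axis) in each library by class of nuclei, with group means and SD beside the points where all 3 libraries of a group have a value. In Int nuclei the KO libraries sit between 63.5 and 67.6 and the WT libraries between 9.37 and 13.3.

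The nuclei were also split by the authors into clusters, most of them nearly all of 1 genotype: cluster C10 was 99.9% KO, C8 99.4% and C2 97.4%, while KO nuclei made up 0.740% of C3 and 0.0554% of C11. Clusters C5 and C2 had at least 50 nuclei in every library. In C5, an Int cluster, the Gmpr score was 10.6, 8.52 and 6.87 in WT and 69.5, 80.3 and 70.9 in KO. Each KO library was thus far above each WT library among nuclei placed in the same cluster.

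In C2 the WT score was 17.9, 2.71 and 2.46 from only 64, 58 and 68 nuclei, and the KO score was 44.3, 43.5 and 41.0. The weight of single nuclei in these WT values was not tested. The highest WT values were in the Early cluster C7, at 25.5 and 28.8 in replicates 1 and 2, below the lowest KO value of any cluster. Among KO nuclei the score ran from 41.0 in C2 to 80.3 in C5.

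**Figure D2:**
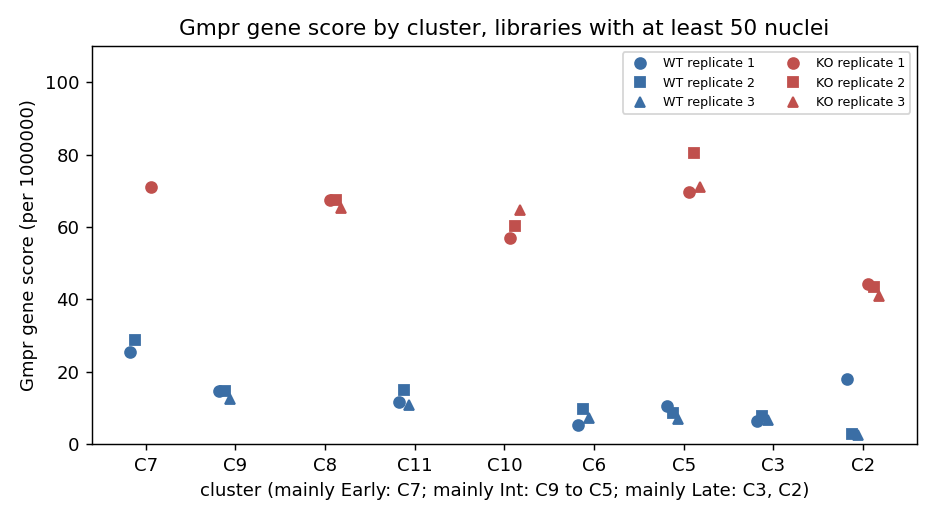
Gmpr gene score per 1000000 by cluster, 1 point for each library with at least 50 nuclei in that cluster, ordered from the Early through the Int to the Late clusters. KO points lie at 41.0 or above and WT points at 28.8 or below in each cluster shown.

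A higher mean can come from more nuclei with a signal or from more signal in each. Because detection depends on depth, nuclei with 5000 to 10000 fragments were compared. In this window Gmpr had a score above 0 in 13.3%, 15.5% and 12.5% of WT nuclei and in 40.1%, 41.1% and 40.6% of KO nuclei. The 95% Wilson intervals, which cover counting error only, ran from 11.3% to 17.1% over the WT libraries and from 37.7% to 43.4% over the KO libraries. The median fragment number within the window was 7091 to 7498 in WT and 7225 to 7363.5 in KO.

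Among the nuclei with a score above 0, the median Gmpr score per nucleus, on the authors' scale of about 10000 per nucleus, was 0.307, 0.323 and 0.311 in WT and 0.961, 0.971 and 0.950 in KO. Both the share of nuclei and the score of the positive nuclei were thus higher in KO. For Impdh1, whose share was 7.59%, 8.33% and 7.37% in WT and 12.8%, 11.3% and 13.4% in KO, the median of positive nuclei was 0.830 to 0.910 in WT and 0.898 to 0.920 in KO.

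For the other relatives the share differed by -6.73 percentage points (Guk1) to 0.765 (Ada). The shares of Gmpr2, Impdh1, Gmps, Guk1, Hprt, Ada and Ampd3 did not overlap between the groups (two-sided exact permutation test p = 0.1 for each; 3 libraries against 3 cannot give a lower p). Those of Impdh2 (exact p = 0.3) and Pnp (exact p = 0.4) did overlap. The 7 of 9 that did not overlap stand beside 55.9% of all genes tested. This count held for that window only: at 3000 to 6000 fragments Ada (exact p = 0.9) and Ampd3 (exact p = 0.4) overlapped, beside 47.8% of all genes with groups apart, and over all nuclei each of the 7 but Impdh1 overlapped, beside 32.7% apart. Among Int nuclei of the 5000 to 10000 window only Impdh1 and Guk1 had groups apart, as had 27.9% of all genes.

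**Figure D3:**
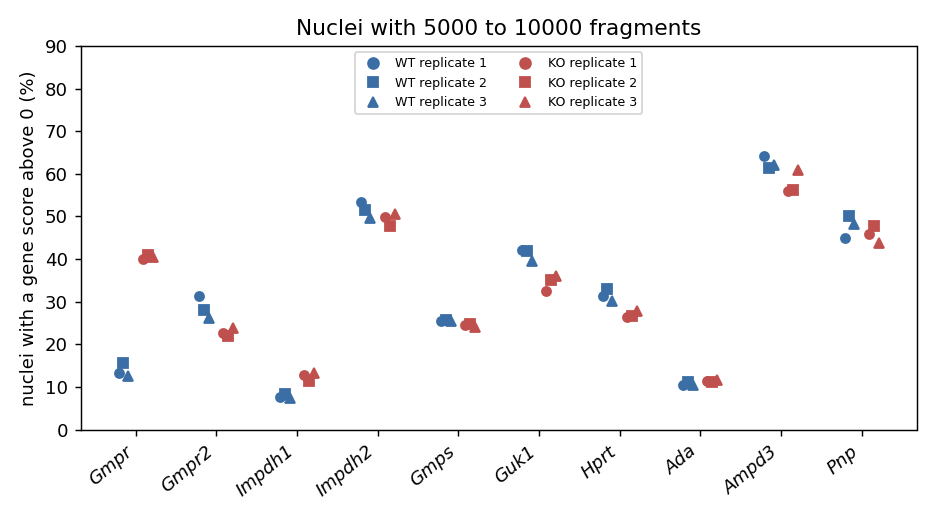
Percent of nuclei with a gene score above 0 for the 10 genes, among nuclei with 5000 to 10000 fragments, 1 point per library. For Gmpr the WT libraries sit between 12.5% and 15.5% and the KO libraries between 40.1% and 41.1%. No other of the 10 genes shows such a gap in this plot, but only Gmpr was chosen by its score in KO against WT.

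Around the relatives the differences were smaller than that of Gmpr, which was chosen by its score in KO against WT. Over all nuclei 1 of the 9 rose and 2 fell at an adjusted p under 0.05 (limma, Benjamini-Hochberg over 17682 genes), against 43.3% of all genes called, 29.1% higher and 14.2% lower, so the count is no larger than the background. Without WT replicate 2 it was 2 higher and 3 lower, beside 35.5% of all genes higher and 12.1% lower. With other scalings the background itself moved: 5144 genes were higher and 2517 lower here, 2549 and 2890 after quantile normalization, 2829 and 2411 after cyclic loess, and 3018 and 5508 after median centring. The median log2 difference of the 9 was -0.086, beside 0.096 over all genes. After quantile normalization it was -0.074, beside -0.018 over all genes, and after median centring -0.23, beside -0.050. The 3 calls on the relatives kept their direction under each of these scalings.

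**Figure D4:**
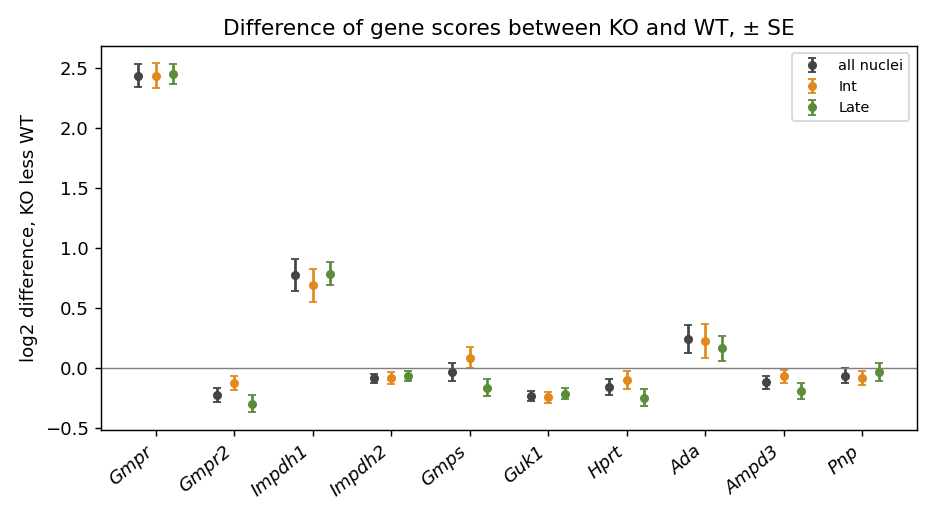
Log2 difference of gene scores, KO less WT, with its standard error, for the 10 genes over all nuclei and in Int and Late nuclei. Gmpr stands at 2.44 to 2.46 and Impdh1 at 0.69 to 0.79, and the other 8 lie between -0.30 and 0.24.

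Of the enzymes that run toward GMP, Impdh1 passed the test and Impdh2 and Gmps did not. Impdh1, 1 of a pair of IMP dehydrogenases and the one prominent in blood cells and retina, scored 8.34, 11.8 and 9.06 in WT and 20.3, 15.7 and 15.9 in KO. The groups did not overlap, and the score rose by 0.77 ± 0.13 (SE) on the log2 scale (adjusted p = 0.000206). Both large classes showed the rise, Int at 0.69 (adjusted p = 0.000448) and Late at 0.79 (adjusted p = 2.7e-05). With nuclei weighted by their fragments it did not pass over all nuclei (0.69, adjusted p = 0.088). Within Int and within Late nuclei it passed under every alternative that tested it (limma adjusted p at most 0.0157 and 0.00233). Means over all nuclei mix the classes, and Early nuclei numbered 102, 235 and 20 in WT and 310, 25 and 16 in KO. In Early nuclei Impdh1 scored 46.3 and 52.6 in WT replicates 1 and 2 and 83.5 in KO replicate 1. The part of this mix was not tested. Genes with like mean scores, 10.6 to 29.8 over all nuclei, had a median difference of 0.24.

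The Impdh1 level also differed by cluster. In the Early cluster C7 it was 47.6 and 51.6 in WT replicates 1 and 2 and 85.1 in KO replicate 1. In C5 it was 10.1, 10.6 and 6.09 in WT and 13.8, 20.1 and 16.8 in KO. The groups were thus apart within that cluster too.

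Impdh2, the IMP dehydrogenase of dividing cells, scored 115 ± 0.725 in WT and 108 ± 0.775 in KO. The groups did not overlap, but the log2 difference of -0.086 ± 0.039 did not pass (adjusted p = 0.0817). After median centring it was called lower over all nuclei (-0.23, adjusted p = 0.0118), in Int (-0.26, adjusted p = 0.0434) and in Late nuclei (-0.13, adjusted p = 0.0244). The direct difference between the pair was not tested. Gmps, which makes GMP from the product of IMP dehydrogenase, scored 26.0, 28.0 and 27.7 in WT and 27.7, 25.9 and 26.1 in KO, overlapping values with a difference of -0.035 ± 0.076 (adjusted p = 0.712). Over all nuclei Gmps was called lower after quantile normalization (-0.20, adjusted p = 0.0196) or median centring (-0.18, adjusted p = 0.0305).

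In Int nuclei Gmps scored 25.9, 27.5 and 26.8 in WT and 28.8, 28.1 and 28.3 in KO. Each KO library was above each WT library there, and the difference of 0.084 did not pass (limma adjusted p = 0.533). In Late nuclei each KO library was below each WT library, and the difference of -0.17 did not pass (adjusted p = 0.0623). It passed there after quantile normalization (-0.31, adjusted p = 0.00359), cyclic loess (-0.26, adjusted p = 0.0101) or median centring (-0.23, adjusted p = 0.0161), with no variance trend (adjusted p = 0.0457) and without WT replicate 1 (-0.21, adjusted p = 0.0429). Whether Gmps was called thus depended on the setting.

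Guk1, the kinase that turns GMP into GDP, scored 87.5, 88.3 and 87.1 in WT and 72.9, 73.8 and 76.5 in KO. Each KO library was below each WT library, and the score fell by 0.23 on the log2 scale (SE 0.043, adjusted p = 0.000392). It was lower in each class as well, with -0.25 for Int (adjusted p = 0.000601) and -0.21 for Late (adjusted p = 0.0029). Genes with mean scores of 76.1 or more had a median difference of -0.071.

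Gmpr2, the second GMP reductase gene of the mouse, went the other way from Gmpr. It scored 61.5, 57.2 and 55.0 in WT and 52.1, 46.8 and 49.0 in KO, without overlap. Its score fell by 0.23 on the log2 scale over all nuclei (SE 0.057, adjusted p = 0.00475) and by 0.30 in Late nuclei (adjusted p = 0.00321). In Int nuclei it did not pass (-0.13, adjusted p = 0.148) unless median centred (-0.30, adjusted p = 0.00836), nor did it over all nuclei weighted by fragments (-0.19, adjusted p = 0.0724).

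Hprt, which salvages hypoxanthine and guanine, scored 31.5 ± 0.455 in WT and 28.1 ± 0.737 in KO, and its groups did not overlap. The log2 difference of -0.16 did not pass over all nuclei (adjusted p = 0.0703). It passed there after quantile normalization (-0.30, adjusted p = 0.00199), cyclic loess (-0.26, adjusted p = 0.0045) or median centring (-0.31, adjusted p = 0.000536) and with no variance trend (adjusted p = 0.0384). In Int nuclei Hprt did not pass (-0.099, adjusted p = 0.385) but was called lower after quantile normalization (-0.20, adjusted p = 0.0378) or median centring (-0.27, adjusted p = 0.0119). It passed in Late nuclei (-0.25, adjusted p = 0.0117). That Late call did not hold without WT replicate 1 (-0.20, adjusted p = 0.055), weighted by fragments (-0.18, adjusted p = 0.0523) or among nuclei with 5000 to 10000 fragments (-0.17, adjusted p = 0.129). Hprt lies on the X chromosome, where the median difference over all nuclei was -0.019 over 416 genes, beside 0.096 over all genes; the part of this in the Hprt value was not tested.

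Ampd3, which turns AMP into IMP, scored 101, 89.5 and 96.4 in WT and 83.2, 86.3 and 94.1 in KO, so the groups overlapped (-0.12, adjusted p = 0.0704). The difference passed among nuclei with 5000 to 10000 fragments (-0.19, adjusted p = 0.00814), after median centring (-0.27, adjusted p = 0.00635), without WT replicate 2 (-0.17, adjusted p = 0.0236) and without KO replicate 3 (-0.17, adjusted p = 0.0219). In Late nuclei it was called lower (-0.19, adjusted p = 0.0299), a call that did not hold without WT replicate 1 (-0.11, adjusted p = 0.142), without KO replicate 1 (-0.15, adjusted p = 0.109) or without KO replicate 2 (-0.18, adjusted p = 0.0828). After quantile normalization that difference was -0.14 (adjusted p = 0.103), and after cyclic loess -0.12 (adjusted p = 0.161).

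Ada, which deaminates adenosine, scored 9.65, 11.2 and 8.88 in WT and 13.1, 10.5 and 12.1 in KO. The groups overlapped and the difference of 0.24 ± 0.12 did not pass (adjusted p = 0.107), and it was -0.033 after quantile normalization. Without WT replicate 2 the Ada difference passed (0.32, adjusted p = 0.0301). Pnp, which splits inosine and guanosine into base and sugar phosphate, scored 97.6 ± 7.65 in WT and 93.3 ± 8.28 in KO (-0.064, adjusted p = 0.396). After median centring Pnp was called lower over all nuclei (-0.21, adjusted p = 0.0303) and in Int nuclei (-0.26, adjusted p = 0.0452).

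By class, 1 relative rose and 1 fell in Int nuclei, where 19.8% of genes were called, 12.7% higher and 7.10% lower (13.2% in all without KO replicate 1). In Late nuclei 1 rose and 4 fell, where 51.4% of genes were called, 32.9% higher and 18.5% lower. These balances moved with the scaling. Higher and lower genes made up 10.7% and 10.4% in Int and 17.6% and 20.2% in Late nuclei after quantile normalization, 6.95% and 21.6% in Int and 25.9% and 28.2% in Late after median centring, and 19.6% and 17.7% in Late after cyclic loess. After median centring 1 relative rose and 5 fell in Int, and 1 rose and 6 fell in Late nuclei. Counting libraries alone, 5 of the 9 had groups that did not overlap over all nuclei, as had 55.4% of all genes. The count was 7 of 9 in Int nuclei, beside 37.3% of genes, and 7 of 9 in Late nuclei, beside 59.5%.

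A comparison that the choice of Gmpr did not use is Late against Int nuclei of the same library. Within WT 2 of the 10 genes rose and 5 fell toward Late, against 73.2% of genes called, 27.7% higher and 45.5% lower. Within KO 2 rose and 6 fell, against 76.6% of genes called, 26.1% higher and 50.5% lower. The median of all genes was itself below 0, at -0.12 in WT and -0.17 in KO, and after quantile normalization, cyclic loess or median centring it lay between 0.013 and 0.050. With those scalings the genes called higher and lower in WT went from 4735 and 7786 to 6588 and 5454, 6089 and 5871, and 6858 and 5741. In KO they went from 4781 and 9236 to 6469 and 5614, 6166 and 5780, and 7747 and 5940.

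The Gmpr score fell from Int to Late by 0.63 in WT (SE 0.14, adjusted p = 0.000132) and by 0.62 in KO (SE 0.046, adjusted p = 6.91e-10). All 6 libraries had the lower value in Late nuclei. In WT, where the score is low, the fall did not pass after quantile normalization (-0.090, adjusted p = 0.421) or cyclic loess (-0.098, adjusted p = 0.365).

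Impdh1 fell by 0.82 in WT and by 0.72 in KO, and Ampd3 by 0.33 and by 0.45 (adjusted p at most 5.64e-06 in each). Ada fell by 0.60 in WT (adjusted p = 0.000198) and by 0.66 in KO (adjusted p = 4.37e-06), and in WT it did not pass after quantile normalization (-0.10, adjusted p = 0.344) or cyclic loess (-0.10, adjusted p = 0.325). Hprt fell by 0.29 in WT (adjusted p = 0.000803) and by 0.44 in KO (adjusted p = 2.48e-06). The WT fall of Hprt did not pass after quantile normalization (-0.12, adjusted p = 0.118) or median centring (-0.11, adjusted p = 0.166).

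Impdh2 rose toward Late by 0.22 in WT (adjusted p = 9.23e-06) and 0.23 in KO (adjusted p = 9.79e-06). Pnp rose by 0.17 in WT (adjusted p = 0.000372) and 0.22 in KO (adjusted p = 3.88e-05), and its WT rise did not pass after quantile normalization (0.078, adjusted p = 0.0596) or cyclic loess (0.071, adjusted p = 0.0785). The IMP dehydrogenase pair thus moved in opposite directions toward Late in both genotypes. Over all genes the direction went with the level of the score. The median difference was -0.36 in WT and -0.31 in KO with no filter, and 0.063 and 0.031 with a filter at a mean of 20. In Int nuclei of WT the mean score was 12.1 for Impdh1 and 105 for Impdh2. The part of the level in their changes was not tested. Gmps fell in KO (-0.21, adjusted p = 0.00473) and had a value of 0.039 in WT (adjusted p = 0.665); its KO value was 0.026 after quantile normalization. Guk1 was at -0.040 in WT and -0.0078 in KO, and Gmpr2 at 0.11 and -0.063, with no call in either. Within KO, Gmpr2 was called higher in Late nuclei after median centring (0.15, adjusted p = 0.00534) and among nuclei with 5000 to 10000 fragments (0.21, adjusted p = 0.0445), and Guk1 after median centring (0.21, adjusted p = 0.000124).

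In WT, Gmpr2 was called higher in Late nuclei without WT replicate 3 (0.21, adjusted p = 0.000287), weighted by fragments (0.16, adjusted p = 0.00574), after median centring (0.28, adjusted p = 9.12e-05) and among nuclei with 5000 to 10000 fragments (0.22, adjusted p = 0.0206). Gmps was called higher there after quantile normalization (0.26, adjusted p = 0.00258), cyclic loess (0.17, adjusted p = 0.0248) or median centring (0.21, adjusted p = 0.0102). Guk1 was called lower there after quantile normalization (-0.12, adjusted p = 0.0119) or cyclic loess (-0.13, adjusted p = 0.00659).

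Depth moved with class and genotype: the median nucleus had 10121 to 12877 fragments in Int and 5693 to 6812 in Late nuclei of WT, and 13911 to 14998 and 6043 to 6503.5 in KO. Its part in these differences was not tested over all nuclei. Among nuclei with 5000 to 10000 fragments, the WT fall of Impdh1 was -0.41 (adjusted p = 0.0552) and that of Hprt -0.22 (adjusted p = 0.0638), and the KO fall of Ada was -0.22 (adjusted p = 0.252) and that of Gmps -0.075 (adjusted p = 0.568).

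**Figure D5:**
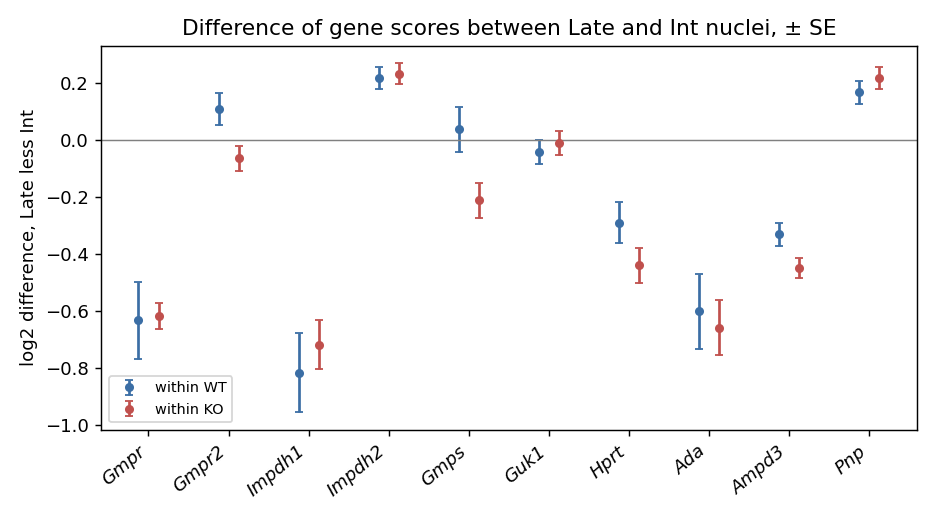
Log2 difference of gene scores, Late less Int nuclei of the same library, with its standard error, within WT and within KO. Gmpr lies at -0.63 in WT and -0.62 in KO, and Impdh2 and Pnp are the genes above 0 in both genotypes.

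Whether the KO difference itself changed between the classes was tested on the difference between Late and Int within each library. For Gmpr the KO difference in Late less that in Int was 0.015 ± 0.115 (adjusted p = 0.959, limma). None of the 10 genes passed (adjusted p 0.121 to 0.959), beside 7.49% of all genes called, 5.35% higher and 2.14% lower. Before adjustment 3 had a limma p under 0.05 (Gmpr2, Gmps and Ampd3), as had 3895 of all 17747 genes. Of all genes 2.18% and 1.99% were called higher and lower after quantile normalization, and 6.42% and 1.52% after median centring. For Gmpr the value was -0.51 after quantile normalization (adjusted p = 0.00445). For Gmpr2 it was -0.17 (adjusted p = 0.189), and -0.28 without WT replicate 3 (adjusted p = 0.00984).

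Gene scores of neighbours could share fragments, so the nearest tested genes were read beside Gmpr and the relatives named here. Atxn1, 3.37 kb beyond Gmpr, scored 31.5, 41.7 and 28.8 in WT and 45.4, 37.5 and 36.9 in KO, overlapping groups with a difference of 0.24 (adjusted p = 0.0751). Mylip, 95.5 kb on the other side, scored 154 ± 6.38 in WT and 195 ± 2.85 in KO and rose by 0.34 (adjusted p = 1.09e-05). Neither differed by as much as Gmpr, at 2.44, the gene chosen by this contrast.

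Gmpr2 lies 0.329 kb from Nedd8, whose score fell by 0.22 (adjusted p = 0.00773), and as far from Tinf2 on the other side, at -0.052 (adjusted p = 0.316). The neighbours of Impdh1 were farther off, Rbm28 at 35.7 kb (0.33, adjusted p = 0.0359) and Hilpda at 56.1 kb (0.39, adjusted p = 0.000194), and both rose. Whether the members share their change with these neighbours through common fragments was not tested.

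The genes whose scores ran most like that of Gmpr over 12 profiles, the Int and Late means of the 6 libraries, were Fbxo44 (Pearson r = 0.996), Gm15850 (0.992), Cldn11 (0.990), Cyb561 (0.990) and Kif21b (0.988), of 17746 genes ranked. The profiles share libraries and the genotype gap, so r is a description. Fbxo44, for example, had mean scores of 37.4 and 94.0 in Int nuclei of WT and KO and of 31.0 and 74.1 in Late nuclei. Gm15850 and Kif21b are neighbours on chromosome 1. Among the relatives Impdh1 ran most like Gmpr (r = 0.839, rank 1205) and Guk1 least (r = -0.883, rank 17523).

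A wider list of 51 purine genes was read for context, of which 49 were in the table and 47 were tested over all nuclei. Of these 13 rose and 12 fell, beside 43.3% of all genes called, and the median difference was -0.046, beside 0.096 over all genes. In Int nuclei 5 rose and 6 fell of 47, beside 19.8% of all genes, and in Late nuclei 11 rose and 13 fell of 45, beside 51.4%. The filter at a mean of 5 takes all 6 libraries together, so a gene can pass it through 1 group. Among the rises, Ak4 over all nuclei passed it only through KO, with means of 4.92 in WT and 6.72 in KO. So did Nt5e in Late nuclei, with means of 4.43 and 5.90. The Int count was 2 and 2 without KO replicate 1, where 13.2% of all genes were called, and 4 and 2 without KO replicate 2, where 14.4% were. It was 3 and 0 with no variance trend, where 9.87% of all genes were called. Among nuclei with 5000 to 10000 fragments it was 2 and 1, where 8.96% were. The count over all nuclei dropped to 4 higher and 3 lower with nuclei weighted by fragments, where 12.8% of all genes were called, and to 7 and 10 after quantile normalization, where 30.8% were. After median centring it was 6 higher and 22 lower over all nuclei, 2 and 18 in Int and 9 and 22 in Late nuclei. All genes shifted with it, to 17.1% higher and 31.2% lower over all nuclei, 6.95% and 21.6% in Int and 25.9% and 28.2% in Late nuclei.

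The largest rise of the wider list was that of Nudt16, an enzyme that clears inosine diphosphate. It scored 22.6, 20.4 and 18.8 in WT and 57.8, 56.3 and 57.0 in KO, far apart, and rose by 1.43 ± 0.072 (adjusted p = 2.08e-10). Its nearer neighbour Nek11, at 30.7 kb, had a difference of 0.13 (adjusted p = 0.146), and Mrpl3 at 51.9 kb rose by 0.43 (adjusted p = 0.0118). Over the 12 profiles its r with Gmpr was 0.868 (rank 871 of 17746), but within KO it rose from Int to Late by 0.55 (adjusted p = 9.91e-10), where Gmpr fell.

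Xdh, the dehydrogenase that makes uric acid, rose by 0.59 (adjusted p = 0.000518) from a low level of 5.03 ± 0.475. In Int nuclei Xdh did not pass (0.42, adjusted p = 0.0511), and in Late nuclei its mean lay below the filter of 5, so it was not tested. Genes with like mean scores, 5.00 to 10.6 over all nuclei, had a median difference of 0.26. Slc29a3, a nucleoside transporter of lysosomes, rose by 0.41 (adjusted p = 0.000113).

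The AMP deaminases other than Ampd3 were both lower over all nuclei: Ampd1, the muscle form, fell by 0.30 (adjusted p = 0.000243), and Ampd2 by 0.34 (adjusted p = 0.0227). The Ampd2 groups overlapped, and its call did not hold without WT replicate 2 (-0.24, adjusted p = 0.0863), KO replicate 2 (-0.31, adjusted p = 0.0739) or KO replicate 3 (-0.29, adjusted p = 0.0827). It was also lost with nuclei weighted by fragments (-0.26, adjusted p = 0.271) and with no variance trend (adjusted p = 0.0505). Nt5c, a nucleotidase, fell by 0.30 (adjusted p = 0.00053). The genes listed for the route from small precursors included Adss and Adssl1, which act beyond IMP. Of these 9 tested genes 2 rose (Adssl1 and Atic) and 2 fell (Adsl and Adss). Of the 4 other salvage genes 1 rose (Aprt) and 2 fell (Dck and Dguok), and of all genes 29.1% were higher and 14.2% lower.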

How the data were processed

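Gene scores were deposited as a signal per nucleus, which the authors had scaled to about 10000 per nucleus (sums 9999.855 to 10000.12). Cell Ranger and mm10 are named in the submitters' processing notes, without roles. How fragments were weighted by distance and what defined the classes are not given in the sources used here. Fragment counts, transcription start site enrichment and doublet scores per nucleus are as deposited by the authors, per the file headers, and each nucleus was listed 2 times and used once. No doublets were removed here; leaving out the 10% of nuclei with the highest doublet scores was an alternative.

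Scores were averaged per library and class (at least 50 nuclei), scaled to 1000000, kept at a mean of at least 5 and compared as log2(score + 1) with limma 3.58.1 in R 4.3.3 (trend on the mean, two-sided, Benjamini-Hochberg over all genes tested, threshold 0.05). Late and Int nuclei were compared with the library as a block. Shares were compared with exact permutation tests in scipy 1.17.1. Only the limma fit of KO against WT over all nuclei was tried on simulated data. Promoters were matched by symbol to RefSeq (GRCm38.p6, 10 of 10).

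The genes, lists and naming rule were chosen with earlier results of these data known. Named were the 10 genes, the 3 highest and 3 lowest calls of the wider purine list, the nearest tested neighbours, the 5 genes most like Gmpr and Stag2; some of these are not reported here. Over 8 lymphoid markers the summed score was 80.2 to 87.3 in WT and 92.0 to 99.9 in KO, over 5 megakaryocyte markers 175 to 204 and 212 to 223 (Itga2b 48.4 to 53.6 and 85.4 to 93.5, Gp9 105 to 127 and 96.0 to 104), and over 4 mast or basophil markers 9.57 to 11.4 and 12.6 to 14.0. Replicate numbers did not pair the libraries (see the closing section). Alternatives were other pseudocounts, filters, scalings, variance models, fragment weights, a fixed fragment window and leaving out each library.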

Additional observations from a re-analysis of the deposited data

Results flagged for a closer look

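In 3 of the 47 tested genes of the wider purine list, beside 7.49% of all genes, the KO difference itself was called different between Late and Int nuclei (limma on the difference within each library, adjusted over 17747 genes). This count is no larger than the background. The Nudt16 difference was 1.23 in Int and 1.64 in Late nuclei, so it was larger in Late by 0.41 (adjusted p = 0.00615). That of Slc29a3 was 0.27 in Int and 0.56 in Late nuclei, larger by 0.28 (adjusted p = 0.0394). Gda, the guanine deaminase, had KO differences of -0.051 (Int) and -0.32 (Late), a change of -0.27 (adjusted p = 0.00253).

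With the variance trend fitted on the mean difference in place of the mean level, a choice added after the data were seen, none of the 3 passed (limma adjusted p = 0.0581 for Nudt16, 0.12 for Slc29a3 and 0.0732 for Gda). Over all genes that choice gave 28 calls in place of 1329, and the latter ran from 375 without KO replicate 2 through 413 without WT replicate 1 and 720 without KO replicate 1 to 2700 without WT replicate 3. With no variance trend Gda (adjusted p = 0.0925) and Slc29a3 (adjusted p = 0.0912) did not pass either. Nor did the 3 pass among nuclei with 5000 to 10000 fragments (adjusted p = 0.488, 0.212 and 0.212), where 15 of all 17095 genes tested were called. Without KO replicate 2 the Nudt16 and Slc29a3 differences did not pass either (adjusted p = 0.0633 and 0.191). After quantile normalization the Nudt16 value was 0.19 (adjusted p = 0.147) and that of Slc29a3 0.19 (adjusted p = 0.154). The Slc29a3 difference also did not pass without WT replicate 1 (adjusted p = 0.117), WT replicate 2 (0.0857) or KO replicate 3 (0.148). Over its alternatives it lost the call in 10 and kept it in 9.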

How the results depend on the processing

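Over the 10 genes, 6 comparisons and their alternatives, 906 of 1017 values kept their direction and their side of the threshold. For Gmpr between KO and WT, which had no test, kept means a move smaller than the SD of the libraries. Of the other values 24 lost a call, 35 gained one and 43 turned direction (4 of them gaining and 2 losing a call as well). The last 9 were Gmpr values that moved by more than that SD. Filters, variance models and the block leave a log2 difference unchanged, so there only its side of the threshold could move. The log2 difference of Gmpr between KO and WT was 2.06 over all nuclei, 2.12 in Int and 1.99 in Late nuclei with a pseudocount of 5; 2.27 over all and in Late nuclei after cyclic loess; 2.28 in Late nuclei after quantile normalization; 2.26 in Int nuclei after median centring; and 2.21 over all and 2.25 in Int nuclei weighted by fragments. Its difference in the share of nuclei with a score above 0 was 26.8 percentage points, 18.7 at 3000 to 6000 fragments and 31.1 over all nuclei.

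Of the 9 relatives, 3 passed over all nuclei (43.3% of all genes), 5 after quantile normalization (30.8%), 8 after median centring (48.2%), 1 weighted by fragments (12.8%), and 3 to 5 with 1 library left out (5 without WT replicate 2, 47.6%). In Int nuclei 2 passed (19.8% of all genes), 1 with a filter at a mean of 20, which removes Impdh1 and Ada (28.8%), and 6 after median centring (28.5%). Toward Late in WT 7 of the 10 genes passed (73.2%), and 4 of the 7 left by the filter at 20 (74.3%). The change of the KO difference between classes passed for 0 of 10 (7.49% of all genes), for 1 after quantile normalization (4.18%), and for 0 to 1 with 1 library left out (1 without WT replicate 3, 15.0%).

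These directions turned, among them that of Gmps from Int to Late in KO, which was called at -0.21. Between KO and WT over all nuclei Gmps was 0.011 weighted by fragments, Ada -0.033 after quantile normalization and -0.012 after cyclic loess, and Pnp ran from -0.13 to 0.0013 with 1 library left out. In Int nuclei Gmps was -0.063 after quantile normalization, -0.032 after cyclic loess, -0.092 after median centring and -0.013 in the window of 5000 to 10000 fragments, where Ada was -0.062. In Late nuclei Ada was -0.17 after quantile normalization and -0.16 after cyclic loess; Pnp was 0.025 and 0.037 there, and -0.11 to 0.058 with 1 library left out. From Int to Late in WT Gmps was -0.023 weighted by fragments and Guk1 0.13 after median centring. In KO Gmpr2 was 0.15 after median centring and 0.21 in the window, Gmps 0.026 after quantile normalization and 0.0051 after median centring, and Guk1 0.21 after median centring, 0.0069 without high doublet scores and -0.047 to 0.046 with 1 library left out.

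For the change of the KO difference between classes, Gmpr was -0.12 with a pseudocount of 5, -0.51 after quantile normalization, -0.0014 after median centring, -0.075 in the window, -0.018 without high doublet scores and -0.034 to 0.10 with 1 library left out. Impdh1 was -0.12 after quantile normalization, -0.092 in the window and -0.037 to 0.20 with 1 library left out. With 1 library left out Impdh2 ran from -0.023 to 0.047 and Guk1 from -0.0065 to 0.086; Impdh2 was -2.8e-05 after median centring. Ada was 0.086 weighted by fragments, 0.18 in the window and -0.12 to 0.036 with 1 library left out. In shares over all nuclei, where depth is not held fixed, Impdh2 was at 1.11, Gmps 2.83, Ampd3 0.19 and Pnp 1.39 percentage points. The cause of these turns was not tested.

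The replicate numbers did not pair the libraries: deviations of same-numbered libraries correlated at -0.117, -0.273 and 0.206. With the replicate block the call of Ampd3 over all nuclei was gained (adjusted p = 0.0313), and 7470 genes were called in place of 7661. In that fit the Gmpr difference was 2.44. The block moved the count of genes called from 3858 to 4527 in Int and from 8161 to 7982 in Late nuclei. For the change of the KO difference between classes it moved from 1329 to 1844. The replicate numbers are a shared label only. The number of nuclei limits the Early class, with fewer than 50 in 3 libraries, and the score of a single nucleus is mostly 0, with 25.2% of values above it.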
